A study of Danio rerio with 6 samples.

Results

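The immunoproteasome and the peptide loading machinery were examined in heart ventricles of old and young zebrafish through 10 genes: *psmb8a*, *psmb9a*, *psmb12*, *psmb13a*, *psme1*, *psme2*, *tap1*, *tap2a*, *tapbp.1* and *b2m*. They were chosen by symbol, and the choice was made with earlier results of the same comparison known. Each symbol matched a single Ensembl gene, *psmb8a* and *psmb9a* only through RefSeq synonyms, since the name table calls these genes PSMB8 and PSMB9. Thus 10 of the 32520 genes in the count table are described. RNA-Seq libraries had been made from 3 ventricle samples of old fish (4 years, replicates 1, 3 and 5) and 3 of young fish (7 months, replicates 1, 2 and 5). All fish were wild type offspring of AB and TU parents. No treatment or injury is given for these samples, and they had been selected for RNA integrity from a larger set. Which major histocompatibility haplotype each fish carried is not given in the sources used here. Since ventricles hold many cell types, more cells of a type and more RNA per cell cannot be told apart in these data.

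The proteasome degrades intracellular proteins in a barrel whose inner rings carry the catalytic beta subunits. In jawed vertebrates, interferon-gamma and other inflammatory signals induce a variant barrel, the immunoproteasome, in which catalytic beta subunits are exchanged for inducible relatives. The resulting peptides are moved by the TAP transporter into the endoplasmic reticulum. There, tapasin helps to load them onto class I heavy chains, which pair with beta-2-microglobulin. In zebrafish several of these genes are neighbours in the core region of the major histocompatibility complex and occur in haplotypes that differ in gene content.

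Total counts ranged from 17742389 to 22547518 over the 6 libraries, and 24835 genes with at least 1 read were tested between the age groups. Values are given as CPM, for which counts were divided by a TMM-adjusted library size. A count of 0 allows a true level of 3 counts, or 0.124 to 0.161 CPM (counting error only). The lowest count of any member in any library was 17. Ventricular cardiomyocyte markers summed to between 63237 and 92200 CPM in every library, and B cell markers to at most 1.22 CPM. The atrial myosin gene *myh6* had 301 CPM in young replicate 1 and between 6.13 and 30.9 CPM in the other 5 libraries. Across all tested genes, 129 (0.519%) passed the threshold with higher and 84 (0.338%) with lower expression in old ventricles. With scaling by library size alone these were 181 and 44 genes, and the median over 8908 expressed genes moved up by 0.18 on the log2 scale.

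Of the 10 members, 9 had a higher fitted expression in old than in young ventricles and 1, *tap1*, a lower one, where 51.3% of all tested genes were fitted higher. In 8 members all old libraries exceeded all young libraries, while 10.4% of all tested genes did so. Their median log2 fold change was 1.44, against 0.02 over all tested genes. The quasi-likelihood test of edgeR (adjusted over all tested genes, threshold 0.05) called 3 members (*psmb8a*, *psmb12* and *tap2a*), each higher in old ventricles, as were 0.519% of all genes. Without adjustment 9 members and 15.1% of all genes had a p-value under 0.05. Because the members had been proposed from this contrast, these counts describe the choice and are no evidence for it. The number of members called was 0 without young replicate 1, 0 without young replicate 2 and 1 without young replicate 5. Over all genes, calls in these settings fell to 57, 19 and 96, from 213 with all libraries. In the same settings 8, 8 and 9 members had an unadjusted p-value under 0.05, as did 3033, 2797 and 3210 of all genes. With old replicate 1, 3 or 5 left out, members called numbered 3, 4 and 4, beside 412, 282 and 263 of all genes. DESeq2's Wald test called 8 members, beside 3.01% of all genes called in that direction and 4.99% in either. By limma-voom 0 members were called and 8 had an unadjusted p-value under 0.05, beside 94 and 3747 of all genes.

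**Figure D1:**
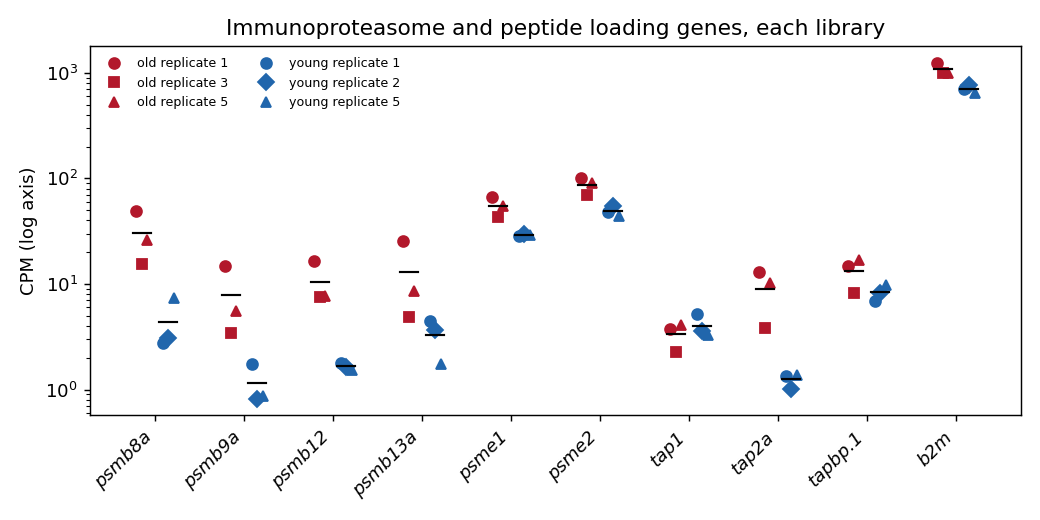
CPM of the 10 members (log axis) in each library, with old libraries in red, young libraries in blue, marker shapes for the replicates and black bars for the group means. The groups are separate for 8 genes and overlap for *tap1* and *tapbp.1*, and old replicate 3 is the lowest old library for every gene.

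The inducible catalytic subunits were the members with the largest distance between the ages, together with *tap2a*. *psmb8a* (ENSDARG00000001303), the zebrafish relative of the mammalian beta subunit LMP7, had 49.5, 15.5 and 26.1 CPM in old replicates 1, 3 and 5. In young replicates 1, 2 and 5 it had 2.75, 3.09 and 7.35 CPM. The lowest old library thus lay above the highest young one, and young replicate 5 stood above the other young libraries. The group means were 30.4 ± 17.4 (SD, n = 3) and 4.40 ± 2.56 (SD, n = 3) CPM, which gave a log2 fold change of 2.79 (± 0.49 SE). It was 3.38 without young replicate 5.

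*psmb9a* (ENSDARG00000000656), related to the mammalian subunit LMP2, had 14.7, 3.43 and 5.54 CPM in old replicates 1, 3 and 5. In young replicates 1, 2 and 5 the values were 1.75, 0.821 and 0.868 CPM. The groups did not overlap, but old replicate 1 was 4.29-fold above old replicate 3. The log2 fold change was 2.78 (± 0.57 SE) with all libraries and 1.96 without old replicate 1.

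*psmb12* (ENSDARG00000031885), a beta subunit gene that RefSeq lists with a beta1-type synonym, had 16.5, 7.49 and 7.64 CPM in the old libraries in the same order. Its young libraries had 1.80, 1.64 and 1.53 CPM. These were the most uniform young values among the catalytic members, with a highest value 1.18-fold the lowest, and the groups were clearly apart. This gave a log2 fold change of 2.66 (± 0.36 SE).

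*psmb13a* (ENSDARG00000001656), listed by RefSeq with a beta2-type synonym, had 25.5, 4.87 and 8.68 CPM in old and 4.51, 3.67 and 1.74 CPM in young replicates. Old replicate 3 lay just above young replicate 1, so the groups were barely separate. A log2 fold change of 1.98 (± 0.58 SE) became 1.04 when old replicate 1 was left out.

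The constitutive catalytic subunits that these genes are related to differed less between the ages in the fit. *psmb5*, *psmb6* and *psmb7* had log2 fold changes of 0.10 (± 0.20 SE), 0.08 (± 0.17 SE) and 0.14 (± 0.18 SE), and overlapped between the groups. EdgeR gave adjusted p-values of 0.82, 0.85 and 0.70, and none of the 14 other settings brought any of these 3 genes past the threshold. Counts of an inducible gene were also set against its relative in the same library. Where the relative differs little between the ages, the ratio largely repeats the inducible gene's own difference and is no separate support. As gene lengths differ, such a ratio can be compared between libraries but not between genes. For 100 counts of *psmb5* there were 57.6, 22.8 and 42.4 counts of *psmb8a* in the old and 4.87, 3.97 and 11.1 in the young libraries. The ratio was higher in each old library than in any young one.

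For 100 counts of *psmb6*, the old libraries held 32.6, 7.90 and 12.9 counts of *psmb9a*, and the young libraries held 5.02, 1.77 and 2.01. *psmb12* counts per 100 counts of *psmb6* were 36.7, 17.3 and 17.8 in old and 5.16, 3.53 and 3.55 in young libraries. Neither ratio overlapped between the ages. In contrast, *psmb13a* counts per 100 counts of *psmb7* were 46.0, 11.1 and 18.0 in old and 11.6, 7.38 and 3.85 in young libraries, so old replicate 3 fell below young replicate 1. *psmb10*, another inducible relative of *psmb7* that is not a member, had 38.0, 24.4 and 35.8 CPM in the old and 19.0, 19.4 and 17.4 CPM in the young libraries. Its groups did not overlap, but its log2 fold change of 0.81 (± 0.21 SE) did not pass the threshold (edgeR adjusted p = 0.11). Of the 14 other settings DESeq2 alone called it, with adjusted p-values from 0.019 to 0.30 over the settings.

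**Figure D2:**
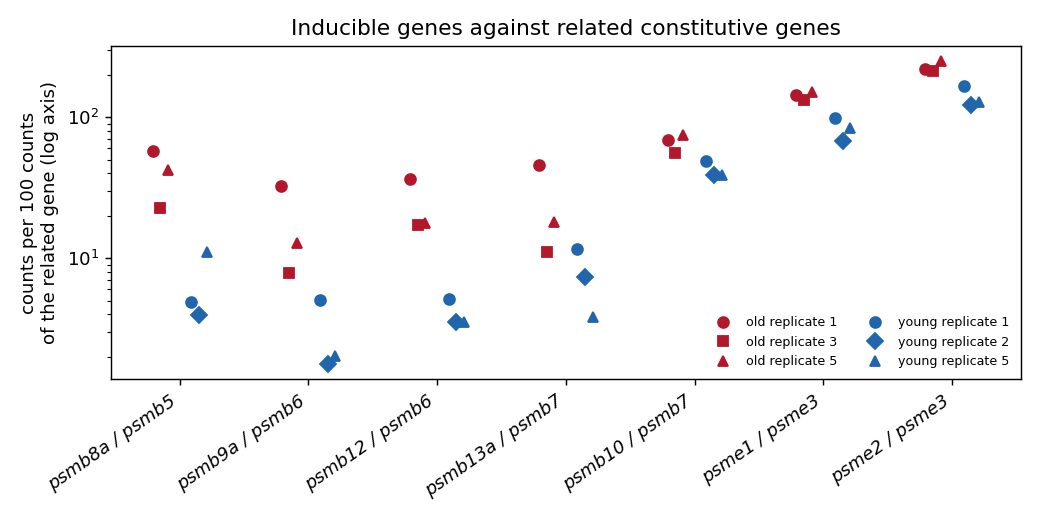
Counts of an inducible gene per 100 counts of a related constitutive gene (log axis), 1 point per library, old in red and young in blue. Old and young libraries are apart for each pair except *psmb13a* over *psmb7*.

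*psme1* and *psme2* encode the subunits of the PA28 activator, a ring that caps the proteasome and is induced by interferon-gamma in mammals. *psme1* (ENSDARG00000002165) had 66.2, 43.1 and 54.3 CPM in old replicates 1, 3 and 5, and 28.3, 30.0 and 28.9 CPM in young replicates 1, 2 and 5. *psme2* (ENSDARG00000033144) had 100.2, 69.5 and 90.4 CPM in the old and 47.7, 54.5 and 44.5 CPM in the young libraries. Every old library was above every young one for both genes, but the distance was smaller than for the catalytic subunits, with log2 fold changes of 0.91 (± 0.20 SE) and 0.83 (± 0.19 SE). The subunits kept close to each other, with 55.1 to 66.0 counts of *psme1* per 100 counts of *psme2* over the 6 libraries. *psme3*, the gene of a related activator, had overlapping groups and a log2 fold change of 0.09 (± 0.22 SE, edgeR adjusted p = 0.85). *psme1* counts per 100 counts of *psme3* ranged from 132 to 150 in old and from 67.6 to 99.1 in young libraries.

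The transporter subunits went apart. *tap2a* (ENSDARG00000036787) had 13.0, 3.80 and 10.3 CPM in old replicates 1, 3 and 5 and 1.35, 1.01 and 1.38 CPM in young replicates 1, 2 and 5. The log2 fold change of 2.85 (± 0.45 SE) was the largest of the members, and the groups did not overlap. *tap1* (ENSDARG00000079766), whose product forms the transporter with that of TAP2 genes, had 3.72, 2.25 and 4.05 CPM in the old libraries. Its young libraries had 5.16, 3.62 and 3.32 CPM, which overlapped with the old ones. The log2 fold change of -0.27 (± 0.33 SE) stayed between -0.43 and -0.05 in the 14 other settings. For 100 counts of *tap1* there were 349, 169 and 255 counts of *tap2a* in old and 26.2, 28.0 and 41.5 in young libraries. A further TAP2 gene outside the members, *tap2t*, had between 6.96 and 11.0 CPM in old and between 5.70 and 6.76 CPM in young libraries, a log2 fold change of 0.44 that did not pass the threshold (edgeR adjusted p = 0.45).

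*tapbp.1* (ENSDARG00000079402), a tapasin gene, had 14.8, 8.24 and 16.9 CPM in old and 6.96, 8.26 and 9.86 CPM in young libraries. Old replicate 3 was inside the young range, and the log2 fold change was 0.67 (± 0.29 SE). The neighbouring tapasin copy *tapbp.2* (ENSDARG00000045011) likewise had overlapping groups, with 4.62, 3.59 and 6.11 CPM in old and 2.75, 3.67 and 3.01 CPM in young libraries. *tapbpl*, the gene of a tapasin-related protein, had groups that did not overlap, a log2 fold change of 1.50 (± 0.39 SE) and an edgeR adjusted p of 0.11.

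*b2m* (ENSDARG00000053136), encoding the light chain shared by class I molecules, had 1247, 1004 and 1007 CPM in old replicates 1, 3 and 5. In young replicates 1, 2 and 5 it had 708, 766 and 648 CPM. The groups were apart and the spread within each was small, with means of 1086 ± 139 (SD, n = 3) and 707 ± 59.1 (SD, n = 3) CPM. The log2 fold change of 0.62 (± 0.15 SE) was the smallest among the 8 members without overlap. Of the 17 class I heavy chain genes tested, 11 were fitted higher and 6 lower in old ventricles (median 0.49 on the log2 scale). None was called by edgeR, DESeq2 or limma-voom, 3 had an unadjusted p-value under 0.05, and groups were separate for 2, both higher in old ventricles. Over all tested genes, 15.1% had such a p-value and 10.4% had separate groups with old ventricles higher. One of the 2 class I genes with separate groups was *mhc1zba*. It had between 396 and 507 CPM in old and between 333 and 347 CPM in young libraries, a log2 fold change of 0.46 (edgeR adjusted p = 0.19).

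Other genes of the pathway were taken from a list of 89 symbols by role, of which 67 had a single gene with reads. After adjustment over all tested genes, edgeR called 1 of the 67 as higher and 0 as lower in old ventricles, where 0.858% of all tested genes were called in either direction. An unadjusted p-value under 0.05 was found for 19 of them, where 15.1% of all tested genes had one. Of these 19, *jak2a* and *ifngr1l* were fitted lower in old ventricles and the rest higher. DESeq2's Wald test called 10 of the 67, all higher in old ventricles, beside 3.01% of all genes in that direction and 4.99% in either. Limma-voom called 0. In edgeR's test the number was 7 without old replicate 3, 3 without old replicate 1 and 0 without young replicate 1, 2 or 5. Over all genes these settings gave 282, 412, 57, 19 and 96 calls, in that order. No gene was matched for the copies *psmb8f*, *psmb9b*, *psmb13b* and *tap2d* of other haplotypes, which were not analysed here.

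Of the 15 regulators tested, 8 were fitted higher and 7 lower in old ventricles. An unadjusted p-value under 0.05 was found for 10 of them, where 15.1% of all tested genes had one. These 10 were the 8 fitted higher, and *jak2a* and *ifngr1l*, which were fitted lower. The log2 fold changes of *jak2a* and *ifngr1l* were -0.65 (± 0.24 SE) and -0.59 (± 0.24 SE), and groups did not overlap for *ifngr1l*. The gene called by edgeR after adjustment was *stat1b* (ENSDARG00000076182), encoding a transcription factor of interferon signaling. It had 22.1, 6.91 and 23.7 CPM in old and 3.55, 1.74 and 1.38 CPM in young libraries, so the groups did not overlap. Its log2 fold change was 2.98 (± 0.51 SE, edgeR adjusted p = 0.040). Its adjusted p-value was lowest with DESeq2 (5.1e-06) and highest when young replicate 2 was left out (0.21). The gene passed in 7 of 14 other settings and in none that left out a young library. *socs1a*, which encodes an inhibitor of cytokine signaling, had a log2 fold change of 2.1 (± 0.40 SE) and an edgeR adjusted p of 0.051. *irf1b*, the gene of an interferon regulatory factor, had 37.8, 10.3 and 61.7 CPM in old and 11.7, 10.5 and 4.44 CPM in young libraries, which overlapped. Its log2 fold change was 2.04 (± 0.58 SE, edgeR adjusted p = 0.14). *nlrc5*, whose mammalian counterpart drives class I transcription, had a log2 fold change of -0.36 (± 0.21 SE, edgeR adjusted p = 0.48).

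The 14 tested genes listed as catalytic and structural 20S subunits, including *psmb5*, *psmb6* and *psmb7*, had log2 fold changes between 0.07 and 1.15 with a median of 0.24. None passed the threshold in edgeR's quasi-likelihood test, 2 had an unadjusted p-value under 0.05, and DESeq2 called 1. The highest was *psma6l* with 1.15 (± 0.30 SE, edgeR adjusted p = 0.12), and groups overlapped for 12 of the 14. The other 2 had separate groups with old ventricles higher, as did 10.4% of all tested genes. With 14 genes, the overlap does not set the 20S subunits apart from other genes. Proteasome activators, inhibitor and assembly factors had a median of 0.03 over 7 genes. The 9 other transport and loading genes had a median of 0.12, and the 3 trimming peptidases tested had one of 0.14. In these 3 groups 0 genes passed in edgeR's test, 1 in each had an unadjusted p-value under 0.05, and DESeq2 called 1 in each. Over all tested genes, 15.1% had such a p-value and DESeq2 called 4.99%. *psme4a*, the gene of another proteasome activator, had 14.5, 56.3 and 111 CPM in old and 12.5, 4.40 and 24.1 CPM in young libraries. These groups overlapped, and old replicate 1 was the lowest old library, whereas it was old replicate 3 for all 10 members. That order was not particular to the members. Old replicate 3 was also the lowest old library for the listed 20S subunits, except *psma4*, *psmb5* and *psmb6*, and for *psmb10*, *tap2t*, *tapbp.2*, *tapbpl* and *stat1b*.

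**Figure D3:**
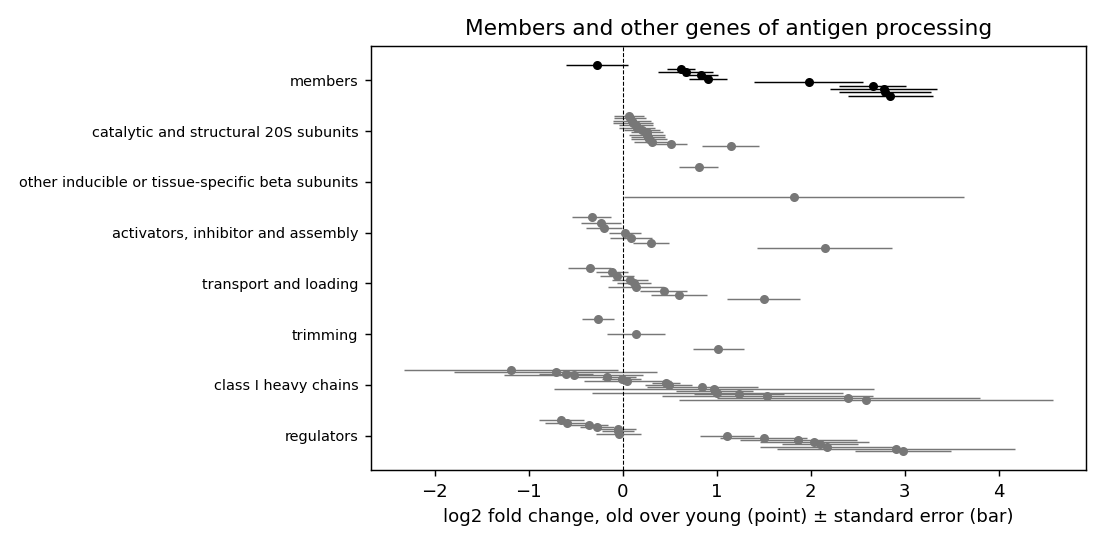
Log2 fold changes of old over young ventricles (points) with standard errors (bars) for the 10 members (black) and the other tested genes of antigen processing by role (grey). Catalytic and structural 20S subunits outside the members lie between 0.07 and 1.15, while 5 members lie between 1.98 and 2.85 and the other members between -0.27 and 0.91.

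In the GRCz12tu assembly, which differs from the build used for counting and serves here for gene order only, 6 members (*tapbp.1*, *psmb13a*, *psmb8a*, *psmb12*, *psmb9a* and *tap2a*) form a block on 1 chromosome. The other 4 members lie on 4 other chromosomes. RefSeq models of the catalytic genes overlap in that assembly, and the authors discarded reads that overlapped several genes, so reads of these neighbours may have been lost. Whether these genes overlap in the annotation used for counting was not examined. Within the block, the adjacent *psmb13a*, *psmb8a*, *psmb12*, *psmb9a* and *tap2a* had log2 fold changes between 1.98 and 2.85. The next gene on the far side of *tap2a*, *brd2a*, had a log2 fold change of -0.42 (± 0.23 SE), and *daxx*, next to *tapbp.1* on the other side, one of -0.27 (± 0.20 SE). The 3 tested non-member genes inside the block, *mhc1uca*, *tapbp.2* and *mhc1uba*, were fitted higher in old ventricles, with a median of 0.98 on the log2 scale, but overlapped between the ages. Of the 21 tested non-member genes in the block and among 12 genes on either side, 10 were fitted higher and 11 lower in old ventricles, and the median log2 fold change was -0.04. Passing the threshold in edgeR's quasi-likelihood test were 0 of these 21 genes, where 0.858% of all tested genes passed. At so low a share, 0 of 21 cannot set these genes apart from other genes. Groups did not overlap for 4 of the 21, beside 4978 of all 24835 tested genes. Of these 4, *kifc1* was fitted higher in old ventricles, and *zbtb22b*, *daxx* and *sdha* lower.

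**Figure D4:**
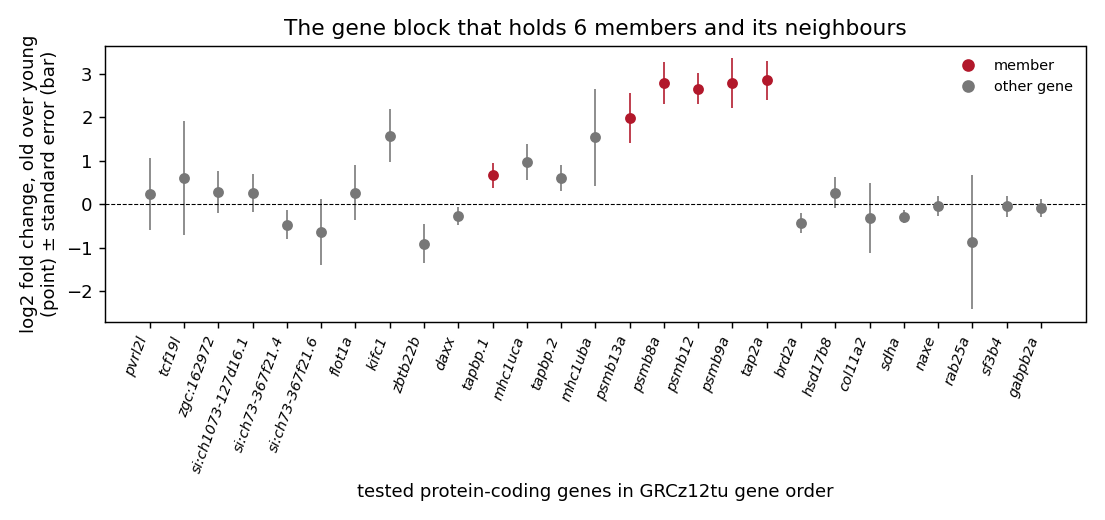
Log2 fold changes of old over young ventricles (points) with standard errors (bars) for tested genes in the order of the GRCz12tu assembly, members in red and other genes in grey. The 5 adjacent members from *psmb13a* to *tap2a* stand between 1.98 and 2.85, and *brd2a* beside them at -0.42.

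The class I genes inside the block overlapped between the ages. *mhc1uba* had 944 and 787 CPM in old replicates 1 and 5 and 539 CPM in young replicate 5, but 59.5 CPM in old replicate 3 and 33.4 and 41.6 CPM in young replicates 1 and 2. *mhc1uca* had 83.8 CPM in old replicate 3 and between 19.1 and 32.8 CPM in the other 5 libraries. Libraries of both ages thus fell on either side for *mhc1uba*. Among the catalytic members, young replicate 5 was the highest young library for *psmb8a*, but the lowest for *psmb12* and *psmb13a*. No member was absent from a library as a whole. The part of haplotypes in the members' values was not tested.

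Of the markers of immune cells and of interferon response, edgeR called *lcp1* alone. The leukocyte markers *ptprc*, *lcp1* and *coro1a* summed to between 38.9 and 89.2 CPM in old and between 19.1 and 30.1 CPM in young libraries, and groups did not overlap for any of the 3 genes. All 3 were fitted higher in old ventricles, had an unadjusted p-value under 0.05 and were called by DESeq2. *lcp1*, which encodes L-Plastin, had a log2 fold change of 1.78 (± 0.33 SE, edgeR adjusted p = 0.048). It passed in 6 of 14 other settings, but in none that left out old replicate 5 or a young library, with adjusted p-values up to 0.21. Of the 8 macrophage markers, 7 were fitted higher in old ventricles, and the 8 summed to between 244 and 885 CPM in old and between 124 and 236 CPM in young libraries. The largest parts of the macrophage sum were *cd74a* (82.8 to 368 CPM over the libraries) and *cd74b* (29.2 to 234 CPM). The sum mostly follows these genes. Groups were separate for 4 of the 8 and overlapped for *csf1ra*, *marco*, *spi1b* and *csf1rb*. The last of these was fitted lower (-0.67 ± 0.56 SE). All 6 interferon response markers tested were fitted higher with separate groups. Their sums were 94.0 to 120 CPM in old and 38.2 to 60.5 CPM in young libraries, mostly from *stat2* (32.0 to 98.8 CPM). None of the macrophage and interferon markers passed the threshold in edgeR's test, while 7 and 6 of them had an unadjusted p-value under 0.05 and DESeq2 called 5 and 4. Over all tested genes, 15.1% had such a p-value, 10.4% had separate groups with old ventricles higher, and DESeq2 called 4.99%. Old replicate 3 was the lowest old library for the leukocyte and macrophage sums, as it was for all 10 members. Among markers of other cells, the T and NK cell list summed to 1.77 to 13.0 CPM in old and 1.21 to 2.25 CPM in young libraries, with *cd4-1* and *cd8a* at 0 in young replicate 2. The B cell markers *cd79b* and *pax5* had at most 1 count in any library.

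Neutrophil markers summed to 7.66 to 48.5 CPM in old and 4.01 to 7.61 CPM in young libraries, with 48.5 CPM in old replicate 5. Erythrocyte markers summed to 389 to 413 CPM in old and 781 to 2385 CPM in young libraries. All 4 tested were fitted lower in old ventricles with separate groups, had an unadjusted p-value under 0.05 and were called by DESeq2. Over all 24835 tested genes, 2398 had separate groups with old ventricles lower, and DESeq2 called 491 as lower. Such a p-value was found for 15.1% of all tested genes. EdgeR called 1 of the 4 erythrocyte markers, beside 0.338% of all tested genes called as lower. This was *hbaa1*, a hemoglobin gene with a log2 fold change of -1.99 (± 0.32 SE, edgeR adjusted p = 0.031). This call was lost in 5 of 14 other settings, among them that without young replicate 5. Bulbus smooth muscle markers summed to 58.6 to 223 CPM in old and 38.6 to 51.7 CPM in young libraries. The part of any of these markers in the members' values was not tested.

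Set against the summed leukocyte markers of the same library, the members fell into 3 groups. The leukocyte sum was itself higher in every old than in every young library. A gene with equal CPM at both ages therefore has a lower ratio in old libraries. How many of all tested genes separate on this scale was not determined, so the groups are a description only. The ratio was higher in every old than in every young library for *psmb9a*, *psmb12* and *tap2a*. For 100 CPM of leukocyte markers, *tap2a* had 14.5, 9.78 and 13.1 CPM in old and 4.49, 4.36 and 7.22 CPM in young libraries. *psmb12* had 18.5, 19.3 and 9.67 CPM in old and 5.98, 7.05 and 8.02 CPM in young libraries on this scale, so its lowest old library stayed above its highest young one. *psmb8a* overlapped, as young replicate 5 with 38.5 CPM reached into the old range of 33.0 to 55.5 CPM, and so did *psmb13a*, *psme1*, *psme2* and *b2m*. For *tap1* and *tapbp.1* the ratio was lower in every old than in every young library, with 4.17 to 5.79 CPM of *tap1* in old and 15.6 to 17.4 CPM in young libraries per 100 CPM of leukocyte markers.

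**Figure D5:**
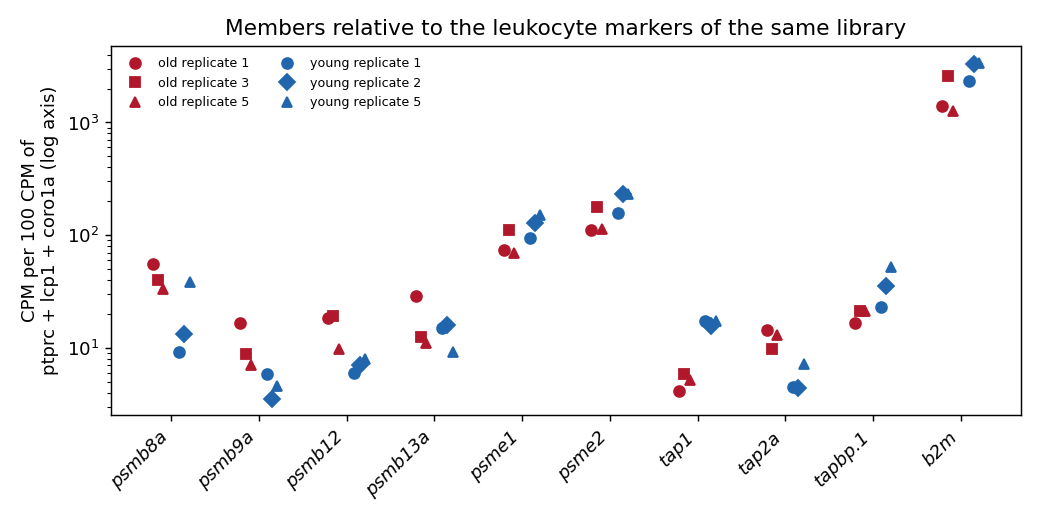
CPM of each member per 100 CPM of the summed leukocyte markers *ptprc*, *lcp1* and *coro1a* in the same library (log axis), old in red and young in blue. Old libraries lie above young ones for *psmb9a*, *psmb12* and *tap2a*, below them for *tap1* and *tapbp.1*, and overlap for the other 5 members.

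To describe which genes varied most like the members, the centred log2 CPM of the 10 members were averaged, and this profile was compared with 8900 other genes of at least 5 CPM on average. Over all 6 libraries the 5 genes with the highest Pearson's r were *parp4* (0.996), *lygl1* (0.991), *tm4sf21a* (0.991), TCIRG1 (0.989) and TPP1 (0.988), the last 2 spelled as in the name table. *lygl1* belongs to the goose-type lysozymes, TCIRG1 encodes a subunit of the vacuolar proton pump and TPP1 a lysosomal peptidase. Of the members, which are part of the profile, *psme1* and *tap2a* followed the profile most closely (both 0.99), and *tap1* did not follow it (-0.08). When only deviations from the group means were used, the closest genes were PXN, CXXC1, TPP1, *cadpsb* and ENSDARG00000117602, with r between 0.991 and 0.996, and *tap1* had an r of 0.72. These values rest on 6 libraries, over which the first profile includes the age contrast, and are given as a description.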

How the data were processed

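RNA-Seq counts of 3 old and 3 young ventricle samples were used. The authors had aligned single-end reads of poly(A)-selected, stranded libraries to GRCz11 (Ensembl annotation) with STAR 2.5.4b and counted uniquely mapped reads per gene with featureCounts 1.6.3. They deposited raw counts without normalization. Multi-mapping and multi-overlapping reads had been discarded, so counts of similar or overlapping copies are uncertain.

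Counts were analysed in R 4.3.3. All 24835 of 32520 genes that had a read in some library were normalized by TMM and fitted with edgeR 4.0.16 (glmQLFit with default settings, glmQLFTest), with age group as the only factor. P-values were adjusted after Benjamini and Hochberg, and calls were made under 0.05. The standard error was taken as the log2 fold change over the square root of F. DESeq2 1.42.0, limma 3.58.1 (voom), other scalings and filters, bias-adjusted deviances, a replicate block and each library left out were alternatives. The fit was tested on simulated data.

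Symbols came from a name table, with RefSeq synonyms and the study's symbol list where it lacked one. The members and lists were chosen with earlier results of these data known. Named were all members, their catalytic relatives and copies, pathway genes past the threshold and the 5 genes most like the members by either profile. *lcp1*, *hbaa1*, *psme3*, *psma6l*, *psme4a*, *tapbpl*, *socs1a*, *irf1b*, *nlrc5*, *jak2a*, *ifngr1l*, *mhc1zba*, *mhc1uba*, *mhc1uca*, *brd2a*, *daxx*, *kifc1*, *zbtb22b* and *sdha* were chosen once values were known. Python 3.11.15, pandas 2.3.3 and matplotlib 3.10.9 served for tables and figures. The paper speaks of 3 samples per age, and these were treated here as separate individuals.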

Additional observations from a re-analysis of the deposited data

How the results depend on the processing

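All 10 members kept the sign of their log2 fold change in each of the 14 other settings. The number of members past the threshold was 5 with library size alone, 1 with at least 10 reads summed, 1 with filterByExpr, 1 with bias-adjusted deviances, 8 with DESeq2 and 0 with limma-voom. It ranged from 0 to 4 with each library left out. For the other pathway genes the number was 2 with library size alone, 0 with at least 10 reads summed, 0 with filterByExpr, 0 with bias-adjusted deviances, 10 with DESeq2, 0 with limma-voom, and from 0 to 7 with a library left out. In the settings without calls, between 14 and 19 of these genes had an unadjusted p-value under 0.05. Over all genes, between 2797 and 4005 had one in those settings, where between 14864 and 24835 genes were tested. Over all genes there were 213 calls, against 65, 111, 111, 1239 and 94 with the same filters, deviances and tools in that order, and 19 (without young replicate 2) to 412 (without old replicate 1) with a library left out. The cause was not tested.

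The replicate numbers 1 and 5 occur in both ages. Deviations of same-numbered libraries correlated with -0.07 and 0.07 across 8908 genes, and those of differently numbered ones with -0.24 to 0.36. With so few libraries these values cannot decide whether the numbers mark pairs. The numbers were not taken as pairs in the main fit. With the replicate number as a block, 126 genes were called, among them 4 members (*psmb9a*, *psmb12*, *psmb13a* and *tap2a*, but not *psmb8a*) and 1 other pathway gene (*stat1b*). In that setting old replicate 3 and young replicate 2 have no partner. The age difference there rests on replicates 1 and 5 of each age alone, without old replicate 3, the lowest old library of every member. With 3 libraries per age, members with spread-out old values, such as *psmb13a*, are the least certain.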
